A study of Mus musculus with 16 samples.

Results

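Glycolysis was followed through 8 genes, Slc2a1, Hk2, Pfkp, Aldoa, Pgk1, Eno1, Ldha and Pdk1, which are 8 of the 23284 genes in the deposited table of expression values. They were taken as a list by name and not by a cutoff on any value, but with earlier results of these data known. Counts of these genes set beside the share of all genes are therefore descriptive. All 8 passed the filter on low values, at least 1 FPKM in at least 2 libraries (FPKM, fragments per kilobase of transcript, scaled to library size). The RNA came from mouse embryoid bodies (EBs), the aggregates in which pluripotent cells differentiate, and from induced pluripotent stem cells (iPSCs) reprogrammed from embryonic fibroblasts. All cells had the genotype ColA1_miR203; Rosa26rtTA, in which doxycycline switches on the microRNA miR-203, and every library is labelled with doxycycline for 5 to 7 days, so no library is labelled as untreated or wild type. The series set out to follow the transcriptome over time, from before a 5-day doxycycline pulse to points 5 and 20 days after its end and to 7 days as EBs. A point before doxycycline does not match a doxycycline label on every library, so that label may not hold for each of them.

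Each title joins a prefix (KIX or KI) to a letter (D or V) and then either the suffix EB or one of the numbers 1, 4 and 10, and the labels explain none of these codes. They were therefore compared as codes, with no treatment, day or clone read into them. The 8 groups were KIX and KI at number 1, KIX and KI at number 4, KIX and KI at number 10, and KIX and KI EBs, each with 1 D and 1 V library, which makes 12 iPSC and 4 EB libraries. Nothing in the labels says that D and V come from separate cultures. The p-values therefore reflect only how far these samples spread, and that spread may be technical. The iPSCs grew on feeder cells and EBs were made in hanging drops. Whether feeders were removed, or how many iPSC clones were used, is not given in the labels.

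Glycolysis splits glucose into pyruvate in the cytosol and yields ATP without oxygen. The glucose transporter Slc2a1 brings glucose in, hexokinase traps it as glucose 6-phosphate, phosphofructokinase commits it to breakdown, and aldolase, phosphoglycerate kinase and enolase carry the carbon on towards pyruvate. Lactate dehydrogenase A turns pyruvate into lactate, and pyruvate dehydrogenase kinase 1 holds pyruvate back from the mitochondrion by phosphorylating pyruvate dehydrogenase. Mouse pluripotent stem cells are known for rapid glycolysis. Most genes of the pathway are known targets of hypoxia-inducible factors, transcription factors that bind DNA at the core ACGTG or GCGTG and accumulate when oxygen is low, and several are also bound by Myc at CACGTG.

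The promoter sequences are shown because ACGTG and GCGTG are the cores that hypoxia-inducible factors are known to bind. Whether these cores have a part in the changes described here was not tested. Windows of 300 bases (250 before to 50 after a transcript start) from RefSeq on GRCm38.p6 were found for all 8 genes, 14 windows in all. ACGTG, searched on both strands (CACGT on the other) with overlapping matches merged, lay in 6 of the 14 windows (42.9%), against 19.6% of all 32851 windows of that length. A window each of Slc2a1, Hk2, Pgk1 and Ldha and 2 overlapping windows of Aldoa held it, and no window of Pfkp, Eno1 or Pdk1 did. GCGTG, searched in the same way (CACGC on the other strand), lay in 8 of the 14 windows (57.1%), against 32.4% of all 32851 windows. It stood in the window of Slc2a1, the window of Pfkp (4 matches), all 3 windows of Eno1, both of Ldha and 1 of Pdk1, and in none of Hk2, Aldoa or Pgk1. A pair of the Eno1 windows overlaps, as a pair of the Aldoa windows does, so the windows are not independent. The 250 bases before the start are printed for 4 of these genes, 5′ to 3′ on the gene's strand, with the ACGTG matches in capitals, from Ldha (3 matches; chr7:46845554-46845803, plus strand), Pgk1 (2 matches; chrX:106186850-106187099, plus strand), Hk2 (2 matches; chr6:82774455-82774704, minus strand) and Slc2a1 (1 match; chr4:119108495-119108744, plus strand). A match is a run of letters, not a measured binding site. In the annotation of the same build (GENCODE vM21) the protein-coding genes themselves lie at chr4:119108711-119137983 (Slc2a1, plus strand), chr6:82725025-82774454 (Hk2, minus), chr13:6579768-6648777 (Pfkp, minus), chrX:106187100-106203699 (Pgk1, plus), chr4:150236721-150248879 (Eno1, plus), chr7:46841475-46855627 (Ldha, plus) and chr2:71873224-71903858 (Pdk1, plus). The symbol Aldoa has a pair of entries, at chr7:126795234-126800751 and chr7:126800790-126809108 (both minus), and the FPKM table does not say which it counts.
Ldha: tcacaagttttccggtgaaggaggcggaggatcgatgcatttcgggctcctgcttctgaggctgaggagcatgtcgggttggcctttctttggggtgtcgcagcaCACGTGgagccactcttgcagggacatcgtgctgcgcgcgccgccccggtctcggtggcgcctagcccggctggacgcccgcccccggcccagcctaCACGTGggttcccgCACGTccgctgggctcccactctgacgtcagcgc
Pgk1: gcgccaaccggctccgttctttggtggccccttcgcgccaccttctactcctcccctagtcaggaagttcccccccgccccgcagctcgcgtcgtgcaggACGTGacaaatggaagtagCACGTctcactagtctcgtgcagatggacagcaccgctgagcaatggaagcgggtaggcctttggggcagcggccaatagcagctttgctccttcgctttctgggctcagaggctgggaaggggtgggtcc
Hk2: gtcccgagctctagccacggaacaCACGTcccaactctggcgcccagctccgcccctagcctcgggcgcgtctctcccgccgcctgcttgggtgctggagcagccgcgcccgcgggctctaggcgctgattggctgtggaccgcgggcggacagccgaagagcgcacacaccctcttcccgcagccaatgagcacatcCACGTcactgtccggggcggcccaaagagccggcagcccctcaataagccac
Slc2a1: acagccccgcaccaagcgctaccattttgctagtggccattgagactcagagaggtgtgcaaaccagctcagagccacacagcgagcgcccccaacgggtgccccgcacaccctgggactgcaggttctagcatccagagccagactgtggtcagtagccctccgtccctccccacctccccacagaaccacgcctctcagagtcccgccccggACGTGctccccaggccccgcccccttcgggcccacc

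The microRNA of the construct is miR-203-3p (RefSeq, GRCm38.p6, chr12:112130927-112130948, plus strand), printed with its seed, bases 2 to 8, in capitals because the seed is what pairs with a target. The matching DNA letters CATTTCA stood in none (0 of 8) of the longest annotated 3′ untranslated regions of the 8 genes (GENCODE vM21), against 15.6% of 21685 genes. For only 8 genes a count of 0 is near that share. The regions ran from 188 bases (Aldoa) to 3737 bases (Pdk1), and the share was not matched for length. Mir203 was listed at 1868 and 1969 FPKM in the D and V libraries of KIX at number 1 and at 2254 and 1728 FPKM in those of KIX at number 4, with 0 in all KI libraries of both numbers. Both prefixes carry the same doxycycline label there, and the labels do not explain this difference. All 4 libraries of number 10 were at 0, and among EBs the gene reached 212.4 FPKM in KIX D and 90.1 FPKM in KI V, with 0 in KIX V and KI D. FPKM divides by length, so a few fragments give a high value for so short a gene.
mmu-miR-203-3p: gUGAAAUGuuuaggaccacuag

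The 8 genes were among the more abundant transcripts, with Aldoa at place 93, Ldha 115, Pgk1 117, Eno1 123, Slc2a1 374, Hk2 1704, Pfkp 2042 and Pdk1 3557 of the 23284 genes by mean FPKM. Together they made up 0.890% and 0.788% of all FPKM in KIX at number 1 (D and V), against 0.782% and 0.711% in KI. At number 4 their share was 0.411% and 0.414% in KIX and 0.716% and 0.602% in KI. At number 10 it was 0.460% and 0.441% in KIX and 0.376% and 0.402% in KI. The share was thus low in KIX at numbers 4 and 10, and in KI at number 10. In EBs the share was 0.898% and 1.05% in KIX and 0.976% and 1.01% in KI, all above every iPSC library. In bulk RNA, fewer cells of a type and less RNA per cell cannot be told apart, and this holds for every difference given here.

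**Figure D1:**
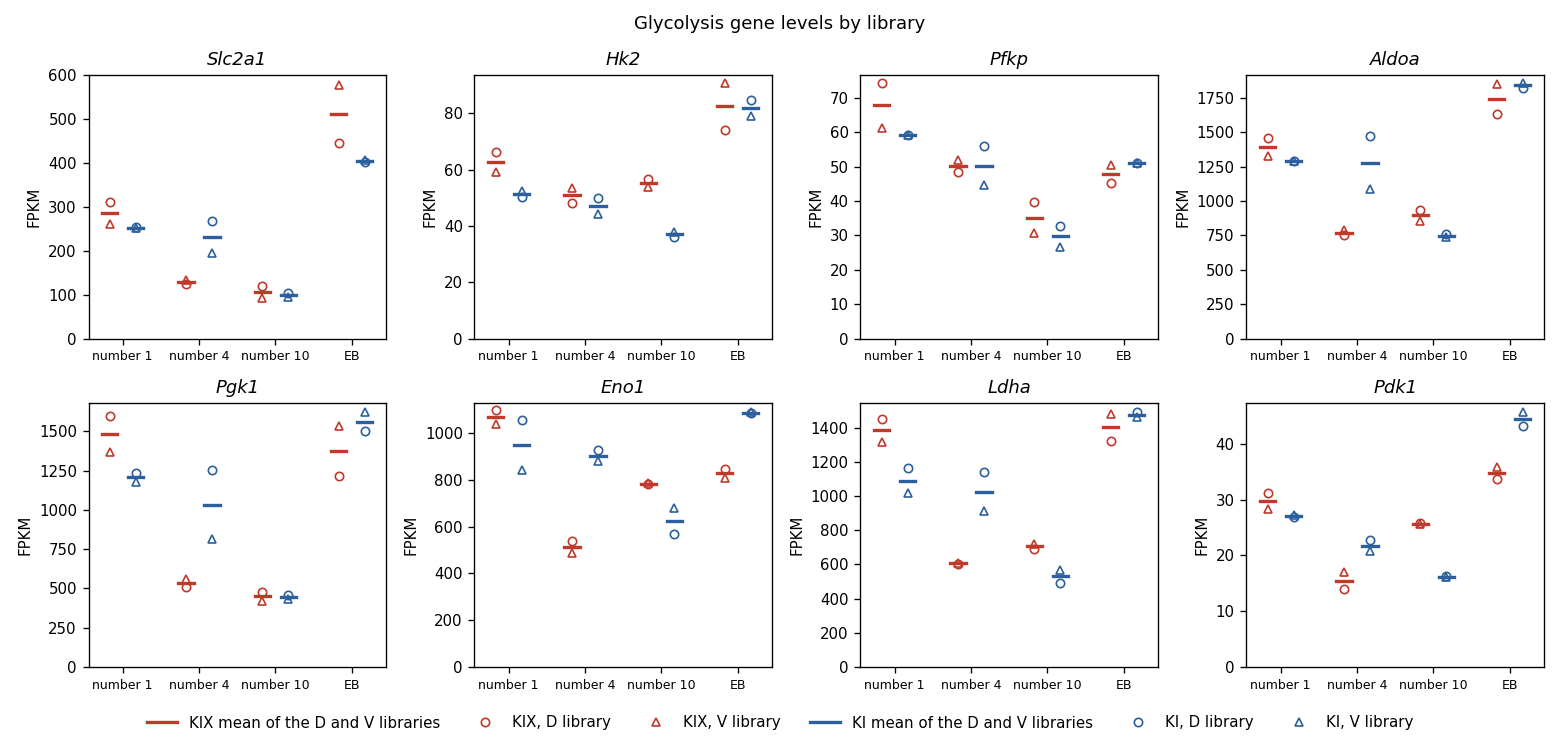
FPKM of the 8 glycolysis genes in all 16 libraries, by number or EB on the horizontal axis, with KIX in red to the left of KI in blue; circles are D libraries, triangles V libraries and bars their mean. Pgk1 stands at 506 and 557 FPKM in KIX at number 4 against 1252 and 812 FPKM in KI, and both prefixes are low at number 10 and high in EBs.

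Slc2a1, a glucose transporter and the entry point of the pathway, gave 311 and 261 FPKM (D and V, as in all pairs of values that follow) in KIX and 254 and 251 FPKM in KI at number 1. At number 4 it stood at 125 and 133 FPKM in KIX and 268 and 196 FPKM in KI. KIX was low and KI high there, with no overlap. Number 10 was low in both prefixes, at 121 and 93.4 FPKM in KIX and 105 and 94.5 FPKM in KI, which overlapped. EBs had the highest levels, 445 and 577 FPKM in KIX and 402 and 408 FPKM in KI. Between numbers 1 and 4 the log2 change, a difference of log2(FPKM + 1) given with its standard error, was -1.14 ± 0.17, adjusted p = 0.000760 in KIX and -0.14 ± 0.17, adjusted p = 0.589 in KI (limma, Benjamini-Hochberg adjusted).

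Hk2, a hexokinase that traps glucose in the cell, changed less. Its levels were 66.4 and 59.0 FPKM in KIX and 50.4 and 52.3 FPKM in KI at number 1, and 48.2 and 53.6 FPKM in KIX and 49.8 and 44.3 FPKM in KI at number 4. It differed most between prefixes at number 10, with 56.6 and 53.9 FPKM in KIX, just above number 4, and 36.2 and 38.0 FPKM in KI, below all other libraries. EBs had 73.9 and 90.9 FPKM in KIX and 84.8 and 79.1 FPKM in KI, above every iPSC library. At number 10 Hk2 was higher in KIX than in KI by 0.56 ± 0.10, adjusted p = 0.00438 (limma).

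Pfkp, the platelet-type phosphofructokinase of the committing step, was lower at each later iPSC number. At number 1 it gave 74.3 and 61.3 FPKM in KIX and 59.1 and 59.3 FPKM in KI, and at number 4 48.4 and 52.0 FPKM in KIX and 55.9 and 44.5 FPKM in KI. It was lowest at number 10, with 39.6 and 30.8 FPKM in KIX and 32.7 and 26.8 FPKM in KI. In EBs it stood at 45.1 and 50.4 FPKM in KIX and 51.1 and 51.1 FPKM in KI, within the range of number 4 and under that of number 1. The libraries of KIX and KI overlapped at numbers 4 and 10.

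Aldoa, the aldolase that cuts the sugar bisphosphate into trioses, was the most abundant of the 8. It gave 1455 and 1325 FPKM in KIX and 1291 and 1287 FPKM in KI at number 1, then 750.0 and 789 FPKM in KIX and 1471 and 1085 FPKM in KI at number 4. The KI libraries of number 4 thus spanned their own range at number 1 while the KIX libraries lay far under theirs. At number 10 Aldoa stood at 935 and 856 FPKM in KIX and 760.3 and 736 FPKM in KI, and in EBs at 1628 and 1847 FPKM in KIX and 1823 and 1859.9 FPKM in KI, its highest levels. KIX was lower than KI at number 4, with a log2 difference of -0.71 ± 0.12, adjusted p = 0.00302 (limma).

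Pgk1, which makes ATP in the pathway, had the largest fall of the 8 between numbers 1 and 4 in KIX. Its levels were 1601 and 1368 FPKM in KIX and 1233 and 1181 FPKM in KI at number 1, and at number 4 they were 506 and 557 FPKM in KIX and 1252 and 812 FPKM in KI. The KI D library of number 4 was at the level of number 1 and the KI V library between it and KIX. At number 10 Pgk1 had 477 and 423 FPKM in KIX and 455 and 432 FPKM in KI, which overlapped, and EBs had 1217 and 1533 FPKM in KIX and 1502 and 1621 FPKM in KI. The change between numbers 1 and 4 was -1.48 ± 0.18, adjusted p = 0.000251 in KIX and -0.26 ± 0.18, adjusted p = 0.323 in KI (limma).

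Eno1, the enolase near the end of the pathway, had 1099 and 1040.0 FPKM in KIX and 1059 and 841 FPKM in KI at number 1. Its number 4 libraries gave 540.0 and 487 FPKM in KIX, the lowest of all 16, and 927 and 879.9 FPKM in KI, inside the KI range of number 1. At number 10 the order was turned round, with 783 and 785 FPKM in KIX and 567 and 679.6 FPKM in KI. EBs had 848 and 810.0 FPKM in KIX and 1086 and 1092 FPKM in KI, so that KIX EBs stayed under the level of KIX at number 1. In KIX the change was -1.06 ± 0.11, adjusted p = 0.000109 between numbers 1 and 4 and 0.61 ± 0.11, adjusted p = 0.00178 between numbers 4 and 10 (limma). Reads of Eno1 can be shared with its near-identical copy Gm5506, which was listed at 146 ± 22.5 FPKM in EBs (SD, n = 4) and 119 ± 24.9 FPKM in iPSCs (SD, n = 12), so the split between the pair is uncertain.

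Ldha, the dehydrogenase subunit that makes lactate from pyruvate, gave 1449 and 1318 FPKM in KIX and 1161 and 1015 FPKM in KI at number 1, and 604 and 610.2 FPKM in KIX and 1138 and 909 FPKM in KI at number 4. KIX was above KI at number 1 and below it at number 4, without overlap at either. At number 10 Ldha stood at 688 and 721 FPKM in KIX and 492 and 568 FPKM in KI, again with KIX above, and in EBs at 1324 and 1477 FPKM in KIX and 1493 and 1459 FPKM in KI, which overlapped. The difference of KIX from KI was 0.35 ± 0.11, adjusted p = 0.159 at number 1, -0.74 ± 0.11, adjusted p = 0.00169 at number 4 and 0.41 ± 0.11, adjusted p = 0.0256 at number 10 (limma).

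Pdk1, the kinase that shuts pyruvate dehydrogenase, was the least abundant of the 8. It stood at 31.2 and 28.4 FPKM in KIX and 26.9 and 27.2 FPKM in KI at number 1, and at 13.9 and 16.96 FPKM in KIX and 22.7 and 20.8 FPKM in KI at number 4. The KIX libraries were then lower. At number 10 they were higher, with 25.8 and 25.7 FPKM in KIX and 16.2 and 16.1 FPKM in KI, and in EBs lower again, with 33.7 and 35.8 FPKM in KIX and 43.1 and 45.8 FPKM in KI. No pair of KIX and KI libraries overlapped at any number or in EBs. KIX differed from KI by -0.48 ± 0.08, adjusted p = 0.00338 at number 4, 0.64 ± 0.08, adjusted p = 0.00174 at number 10 and -0.35 ± 0.08, adjusted p = 0.0108 in EBs (limma).

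Ordered by mean level, EBs of both prefixes took the top places for Slc2a1, Hk2, Aldoa, Ldha and Pdk1, and KIX at number 1 followed in each. For Slc2a1 the order was KIX EB, KI EB, KIX 1, KI 1, KI 4, KIX 4, KIX 10 and KI 10, and the only neighbours whose libraries overlapped were KI 1 with KI 4 and KIX 10 with KI 10. For Pgk1 the top 5 groups, the EBs, both groups of number 1 and KI 4, overlapped each with the next, and a gap separated them from KIX 4, KIX 10 and KI 10. The lowest group was KI 10 for 6 genes, and KIX 4 for Eno1 and Pdk1. With 2 libraries a group, an overlap or a gap rests on 4 values.

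Between numbers 1 and 4 all of the glycolysis genes fell in KIX, and 1 of them fell in KI. In KIX all 8 genes fell, by log2 changes of -0.30 (Hk2) to -1.48 (Pgk1), with a median of -0.98 beside -0.01 over all 13895 genes tested, of which 16.9% fell (limma, adjusted p under 0.05). In KI only Pdk1 fell, by 0.30 ± 0.08, adjusted p = 0.0304, where 11.9% of all genes fell. The other 7 changed in KI by -0.26 (Pgk1) to -0.03 (Aldoa), and the 95% interval of Aldoa ran from -0.30 to 0.24 and that of Pgk1 from -0.65 to 0.13. Both number 4 libraries lay below both number 1 libraries for 8 of the 8 genes in KIX, where 38.9% of all genes did, and for 3 of 8 in KI, where 32.8% did. These 2 comparisons within a prefix, and those of number 10 with 4 within a prefix, were added after the data had been seen. The fall of Hk2 in KIX passed in 9 of 27 alternative fits and that of Pfkp in 14 of 27, while Pdk1 in KI did not pass without KI D1, KI V1 or KI V4.

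The difference between the prefixes in this change was itself past the threshold for 6 of the 8 genes, where 2.19% of all genes fell further in KIX. The log2 difference, KIX minus KI in number 4 minus number 1, was -1.22 ± 0.25, adjusted p = 0.0253 for Pgk1 and -1.09 ± 0.16, adjusted p = 0.00718 for Ldha (limma). It was -0.996 ± 0.24, adjusted p = 0.0415 for Slc2a1, -0.99 ± 0.16, adjusted p = 0.00950 for Eno1, -0.82 ± 0.17, adjusted p = 0.0272 for Aldoa and -0.61 ± 0.12, adjusted p = 0.0202 for Pdk1 (limma). Hk2 (-0.17 ± 0.14) and Pfkp (-0.18 ± 0.20) did not pass, and their 95% intervals of -0.48 to 0.14 and -0.62 to 0.27 include 0. The median over the 8 was -0.91, beside 0.03 over all genes. This count of 6 rests on few libraries: it was 2 without KIX D1, KIX V1, KI D1 or KIX D4 and 3 without KI V1 or KIX V4, with Eno1 and Ldha past the threshold in all 27 alternative fits.

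The summed fibroblast markers (10 genes, the feeder type) were lower at number 4 in both prefixes. Their sum was 1205 to 1224 FPKM at number 4 and 1696 to 1726 FPKM at number 1 in KIX, and 1143 to 1325 FPKM at number 4 and 1778 to 2531 FPKM at number 1 in KI. The 8 pluripotent cell markers summed to 3881 to 4262 FPKM in KIX at number 4 and 4119 to 5143 FPKM in KI, which overlap. A fit took the fibroblast score (the mean log2 level of the 10 markers) as a covariate. In it the log2 changes in KIX were negative for all 8 genes, and the same 6 genes passed for the difference between the prefixes. The score comes from the same libraries, and the part of feeder cells in these changes was not tested.

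**Figure D2:**
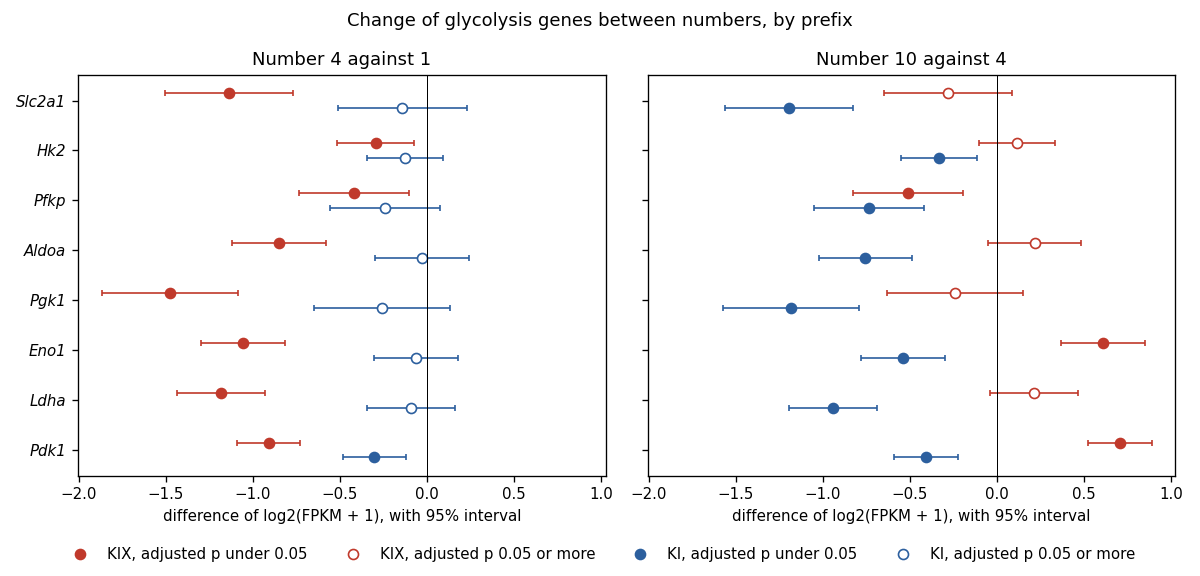
Differences of log2(FPKM + 1) between numbers for each of the 8 genes, KIX in red above KI in blue, with 95% intervals; filled points passed an adjusted p under 0.05 in limma. In the left panel all KIX points are filled and below 0 and in KI only Pdk1 is filled; in the right panel all 8 KI points are filled and below 0, while in KIX Eno1 and Pdk1 are above 0 and Pfkp below.

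Between numbers 4 and 10 the genes fell in KI. All 8 did so, by -0.33 (Hk2) to -1.19 (Slc2a1), with a median of -0.74 beside 0.01 over all genes, of which 14.2% fell (limma). In KIX, Eno1 rose by 0.61 ± 0.11 and Pdk1 by 0.71 ± 0.08, where 17% of all genes rose, and Pfkp fell by 0.51 ± 0.14, where 18% fell. The other 5 genes did not pass in KIX, at -0.28 (Slc2a1) to 0.22 (Aldoa). The difference between prefixes, KIX minus KI in number 10 minus number 4, was called for 7 of the 8, where 11.4% of all genes had it upwards. It was largest for Ldha (1.16 ± 0.16, adjusted p = 0.00132), Eno1 (1.15 ± 0.16, adjusted p = 0.00110) and Pdk1 (1.11 ± 0.12, adjusted p = 0.000381), and Pfkp did not pass (0.22 ± 0.20, 95% interval -0.22 to 0.67). This comparison shares the number 4 libraries with the one before, so the low KIX levels at number 4 enter both with opposite sign. The count of 7 was 4 without KIX D4, KIX D10 or KI V10. Fibroblast markers moved with the prefix here: their sum was 1469 to 1574 FPKM in KIX and 2205 to 2566 FPKM in KI at number 10, against 1205 to 1224 FPKM in KIX and 1143 to 1325 FPKM in KI at number 4. With the fibroblast score as a covariate, 5 of the 8 genes passed in KI. The log2 changes of the other 3 were -0.19 with it and -0.33 without it for Hk2, -0.59 and -0.73 for Pfkp, and -0.33 and -0.41 for Pdk1.

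Over the whole span, number 10 against number 1, all 8 genes fell, where 27% of all genes did. The largest changes were those of Pgk1 (-1.58 ± 0.12, adjusted p = 3.97e-06), Slc2a1 (-1.38 ± 0.12, adjusted p = 6.42e-06) and Ldha (-1.004 ± 0.08, adjusted p = 4.56e-06), and the smallest that of Hk2 (-0.32 ± 0.07, adjusted p = 0.00306), all from limma. Pgk1 stood at 447 ± 24.6 FPKM at number 10 and 1346 ± 188 FPKM at number 1 (SD, n = 4 each). All 8 genes had both libraries of number 10 below both of number 1 in KIX, where 41.1% of all genes did, and in KI, where 35.8% did. The prefixes differed in this change only for Pdk1, by 0.51 ± 0.12, adjusted p = 0.0351 (limma), where 2.01% of all genes had such a difference upwards, and this call was lost without any single library of numbers 1 or 10 and without KI D EB or KI V EB. Averaged over the prefixes, number 4 against 1 gave 8 genes down where 21.7% of all genes were, with a median of -0.58. Number 10 against 4 gave 5 down (Slc2a1, Pfkp, Aldoa, Pgk1 and Ldha) where 19.1% were. With groups set by letter and number, in which KIX and KI serve as replicates, 1 of 8 passed at number 4 against 1 (Pgk1), 1 at 10 against 4 (Pfkp) and 5 at 10 against 1, with Hk2, Eno1 and Pdk1 no longer past the threshold. Of all 13895 genes, 1185, 1547 and 3524 passed in these comparisons with groups set by letter and number. The count of 1 of 8 was thus near the share of all genes at number 4 against 1 and at 10 against 4. With additive terms for prefix and number the counts were 5 at number 4 against 1 and 3 at 10 against 4. There 2603 and 2962 of all genes passed.

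Set against KI at each number, KIX was lower for 6 of the 8 genes at number 4 and higher for 4 at number 10. At number 1 none of the 8 passed in limma, where 1.56% of all genes were higher in KIX. All 8 were nominally higher in KIX, by 0.11 (Aldoa) to 0.35 (Ldha), and Hk2 and Ldha, 2 of the 8, had an unadjusted p under 0.05, as did 2358 of all 13895 genes (17%). At number 4, 6 genes were lower in KIX, where 8.29% of all genes were. The log2 difference was -0.92 ± 0.18, adjusted p = 0.00532 for Pgk1, -0.82 ± 0.17, adjusted p = 0.00719 for Slc2a1 and -0.81 ± 0.11, adjusted p = 0.000741 for Eno1 (limma), and it was between -0.74 and -0.48 for Ldha, Aldoa and Pdk1. Hk2 (0.11) and Pfkp (0.01) did not pass. At number 10, 4 genes were higher in KIX, where 9.94% of all genes were, Pdk1 by 0.64 ± 0.08, adjusted p = 0.00174, Hk2 by 0.56, Ldha by 0.41 and Eno1 by 0.34 ± 0.11, adjusted p = 0.0469. That count was 2 without KIX D10, KIX V10 or KI D10. With the fibroblast score as a covariate, 6 genes passed at number 4 and 3 at number 10, without Ldha. Over 27 alternative fits at number 10, Eno1 passed in 10 and Ldha in 23, while Hk2 and Pdk1 passed in all 27.

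EBs had the highest levels of most of the 8 genes. Against the mean of the iPSC groups 7 of 8 rose, where 44.4% of all genes did, Slc2a1 by 1.42 ± 0.10, adjusted p = 5.22e-08 and Pgk1 by 0.94 ± 0.10, adjusted p = 3.56e-06, and Pfkp did not pass (0.08 ± 0.08, 95% interval -0.10 to 0.26). Slc2a1 averaged 458 ± 81.5 FPKM in EBs (SD, n = 4) and 184 ± 80.5 FPKM in iPSCs (SD, n = 12). The size of the rise depends on which iPSC number is taken, since the iPSC groups differ among themselves. Against number 10 all 8 rose, where 43.2% of all genes did, by 0.44 (Eno1) to 2.13 (Slc2a1). Against number 1, 5 rose, where 42.7% did, Slc2a1 by 0.75 ± 0.12, Hk2 by 0.52 ± 0.07, Pdk1 by 0.46 ± 0.06, Aldoa by 0.42 ± 0.09 and Ldha by 0.23 ± 0.08. Pfkp fell against number 1 by 0.35 ± 0.10, adjusted p = 0.00724, where 40.8% of all genes fell. Pgk1 (0.13 ± 0.12, 95% interval -0.15 to 0.40) and Eno1 (-0.08 ± 0.08, 95% interval -0.25 to 0.09) did not pass. Within a prefix, both EB libraries lay above both number 1 libraries for 4 genes in KIX, where 45.4% of all genes did, and for 7 in KI, where 46% did. Both lay below for 2 genes in KIX, where 44.2% of all genes did, and for 1 in KI, where 42.8% did. With groups set by letter and number, 3 genes passed against number 1 (Slc2a1, Hk2 and Pfkp). The EB libraries are shared by all 3 comparisons, and the last 2 were added after the data had been seen.

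KIX and KI EBs differed for Eno1 (-0.39 ± 0.11, adjusted p = 0.0221) and Pdk1 (-0.35 ± 0.08, adjusted p = 0.0108), both lower in KIX, where 15% of all genes were (limma). The count, 2 of the 8, was near that share and does not set the 8 genes apart. The count of 2 was 0 without KIX D EB or KI V EB and 1 without KIX V EB or KI D EB. Markers of other cell types differed between these EBs as well. Of all genes, 12.4% were higher and 15% lower in KIX EBs. All 8 pluripotent cell markers were lower in KIX, by -0.85 (Tdgf1) to -0.52 (Esrrb), and summed to 897 to 1221 FPKM in KIX EBs and 1734 to 1735 FPKM in KI EBs. All 6 cardiac muscle markers were higher in KIX, by 1.54 (Myl7) to 1.93 (Myh7), with sums of 164 to 695 FPKM in KIX EBs and 95.2 to 108 FPKM in KI EBs. Of the fibroblast markers 7 of 10 were higher (159.7 to 489 FPKM in KIX EBs and 24.1 to 47.0 FPKM in KI EBs), and of the endoderm and liver-type markers 6 of 8 (2924 to 3272 FPKM in KIX EBs and 1724 to 1732 FPKM in KI EBs). Of the 6 blood and endothelial markers 3 were higher and 1 lower, with sums of 125 to 151 FPKM in KIX EBs and 119.6 to 131 FPKM in KI EBs. With the fibroblast score as a covariate the log2 difference was -0.68 for Eno1 and -0.18 for Pdk1 and neither passed. The part of the other lists in the result was not tested. The change from iPSCs to EBs differed between the prefixes only for Pdk1, by -0.44 ± 0.10, adjusted p = 0.00563 (limma), where 18.2% of all genes had a difference downwards. This count, 1 of the 8, was near that share. The count was 2 genes without KIX V1, KI D1, KIX D4, KI D4, KI V4, KIX D10, KIX D EB or KIX V EB.

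Markers of other cell types differed in EBs, too. Of all genes, 44.4% rose and 42.2% fell in EBs against iPSCs. Fibroblast markers summed to 24.1 to 489 FPKM in EBs and 1143 to 2566 FPKM in iPSCs, and all 10 fell. Pluripotent cell markers summed to 897 to 1735 FPKM in EBs and 3495 to 5143 FPKM in iPSCs, all 8 lower. The 8 endoderm and liver-type markers summed to 1724 to 3272 FPKM in EBs and 1.94 to 15.4 FPKM in iPSCs, and the 6 cardiac muscle markers to 95.2 to 695 FPKM in EBs and 4.79 to 17.5 FPKM in iPSCs, with every gene of both lists higher. The 6 blood and endothelial markers summed to 119.6 to 151 FPKM in EBs and 16.96 to 31.7 FPKM in iPSCs, with 5 higher and 1 lower. The fibroblast score did not overlap between EBs (1.56 to 4.40) and iPSCs (5.79 to 6.96). Because it separates EBs from iPSCs, the fibroblast marker level and the EB state cannot be told apart in this design. With the score as a covariate 0 of the 8 genes passed in limma for EBs against iPSCs, against number 1 or against number 10. The log2 changes in that fit ran from -0.49 (Pfkp) to 0.78 (Eno1) against iPSCs, from -0.96 (Pfkp) to 0.45 (Eno1) against number 1 and from 0.01 (Pfkp) to 1.099 (Ldha) against number 10. The change of Ldha was close to its size without the covariate, at 0.65 with it and 0.78 without it against iPSCs and at 1.099 and 1.23 against number 10, while its call was lost. The change of Slc2a1 was 0.43 with it and 1.42 without it against iPSCs.

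**Figure D3:**
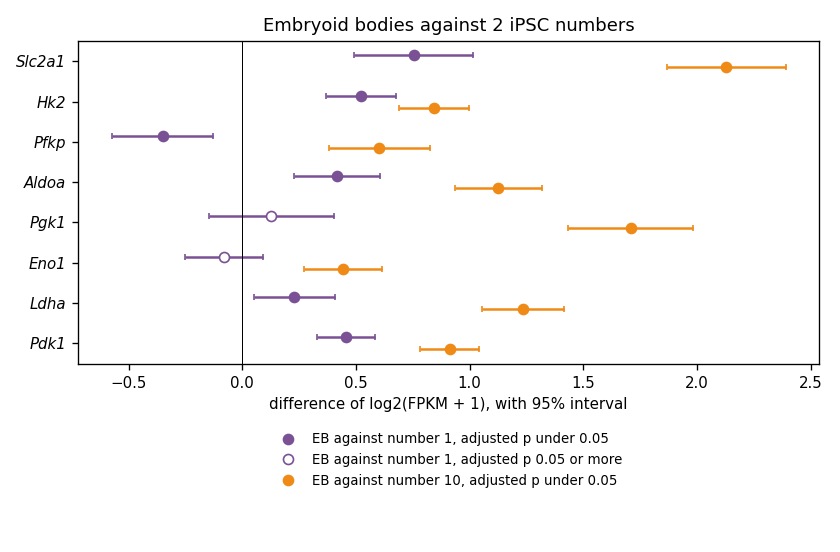
Differences of log2(FPKM + 1) of EBs from iPSCs of number 1 (purple) and number 10 (orange) for the 8 genes, with 95% intervals; filled points passed an adjusted p under 0.05 in limma. All 8 orange points lie above 0, from 0.44 (Eno1) to 2.13 (Slc2a1), and the purple point of Pfkp lies below 0.

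Among the other glycolytic enzymes, most that passed in KIX fell. Of 15 enzymes and isoforms tested (of 20 listed), 9 fell and 1 rose between numbers 1 and 4 in KIX, and 2 fell and 1 rose in KI. Of all genes, 16.9% fell and 15.4% rose in KIX, and 11.9% fell and 6.69% rose in KI. Triose phosphate isomerase, Tpi1, changed by -1.35 in KIX and -0.02 in KI, and the liver-type phosphofructokinase Pfkl by -1.63 in KIX and -0.57 in KI, both past the threshold for Pfkl. Aldoc (-1.32), Ldhb (-1.11) and the phosphoglycerate mutase Pgam1 (-0.64) also fell in KIX, while the neuron-type enolase Eno2 rose in both prefixes (0.60 in KIX and 0.34 in KI). The difference between the prefixes was called downwards for 7 of the 15, where 2.19% of all genes had it so. These were led by Aldoc (-1.46), Tpi1 (-1.33), Pfkl (-1.06), Eno3 (-0.67) and the pyruvate kinase Pkm (-0.58). Over number 10 against 1, 8 fell and 2 rose, where 27% of all genes fell and 25% rose. In EBs against iPSCs 11 rose and 3 fell, where 44.4% of all genes rose and 42.2% fell. In EBs Eno2 (1.76), Pfkl (1.65) and Tpi1 (1.39) were among those that rose, and Ldhc fell (-1.34). Gapdh, a standard reference gene singled out after its values were seen, did not pass in EBs (-0.01) and fell between numbers 1 and 4 in KIX (-0.42).

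**Figure D4:**
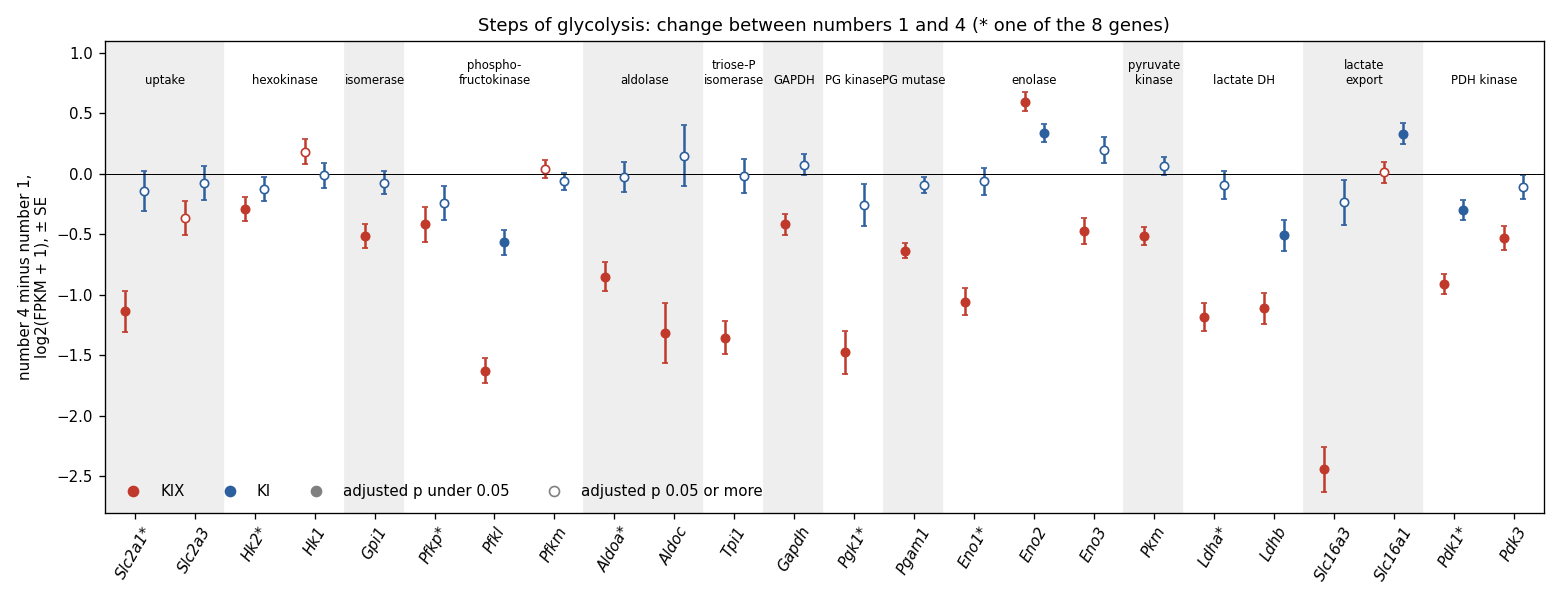
Difference of log2(FPKM + 1) between numbers 4 and 1, ± SE, for the genes of each step of the pathway in order, KIX in red to the left of KI in blue; filled points passed an adjusted p under 0.05 in limma and asterisks mark the 8 genes. Most KIX points lie below 0, down to -2.44 for Slc16a3, and most KI points lie near 0.

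The lactate exporter Slc16a3 fell by 2.44 between numbers 1 and 4 in KIX and changed by -0.24 in KI, with a difference between the prefixes of -2.21 that passed. It was the only one of 4 tested transporters to fall in KIX, where 16.9% of all genes fell. Slc16a1 rose in KI (0.33), where 6.69% of all genes rose. All 4 rose in EBs against iPSCs, where 44.4% of all genes did, Slc16a1 by 2.73, the glucose transporter Slc2a3 by 2.50, Slc16a3 by 2.11 and Slc2a4 by 1.17. Of 6 regulators of fructose 2,6-bisphosphate and side branches, 2 fell in KIX between numbers 1 and 4, where 16.9% of all genes did. They were Pfkfb3 (-0.96), a kinase that makes this activator of phosphofructokinase, and Bpgm (-0.50). Tigar rose (0.24), where 15.4% of all genes did.

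Other routes of carbon had other counts. Of 7 pentose phosphate enzymes, 1 fell in KIX between numbers 1 and 4 (G6pdx, -0.19), where 16.9% of all genes did. In EBs against iPSCs 5 fell, where 42.2% of all genes did, led by Tkt (-1.03), G6pdx (-0.87) and Taldo1 (-0.79). There 1 rose, as 44.4% of all genes did. Of 10 genes of the pyruvate dehydrogenase complex with its kinases and phosphatases, 2 fell and 2 rose in KIX between numbers 1 and 4. These counts were near the shares of all genes, of which 16.9% fell and 15.4% rose. In EBs against iPSCs 8 of these 10 fell, where 42.2% of all genes did, among them the catalytic subunit Pdha1 (-0.88) and the kinase Pdk3 (-1.41). Only 1 rose, Pdk2 (1.24), where 44.4% of all genes did. All 4 tested gluconeogenesis enzymes rose in KIX between numbers 1 and 4, where 15.4% of all genes did, Fbp2 by 0.99, Pck2 by 0.48, Pcx by 0.47 and G6pc3 by 0.39. The prefixes were not called different for this change, and Pck2 (0.02) and Fbp2 (0.23) did not pass in KI.

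Most genes known to respond to low oxygen fell in KIX as well. Of 9 tested (of 10 listed), 8 fell in KIX between numbers 1 and 4, where 16.9% of all genes fell. In KI 1 fell (Adm, -1.27), where 11.9% of all genes did. Between numbers 1 and 10, 8 fell, where 27% of all genes did. In KIX the largest falls were those of Ndufa4l2 (-3.36), a mitochondrial subunit-like protein, Bnip3 (-2.55), a mitophagy receptor, Adm (-1.62), the peptide adrenomedullin, Ankrd37 (-1.51) and P4ha2 (-0.87), a collagen prolyl hydroxylase. Ndufa4l2 (-3.23), Bnip3 (-2.53) and Ankrd37 (-2.07) fell further in KIX than in KI. In EBs against iPSCs 7 of the 9 rose, where 44.4% of all genes did, among them Bnip3 (3.17), Ero1l (2.62), Vegfa (2.50) and P4ha1 (2.40).

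A list of 8 genes held hypoxia-inducible factors and oxygen sensors. In KIX the factor gene Hif1a rose between numbers 1 and 4 (0.25), where 15.4% of all genes did. The prolyl hydroxylases Egln3 (-1.92) and Egln1 (-0.86), both sensors and known targets of the factors, fell there, as did 16.9% of all genes. In KI Epas1 fell (-0.77), where 11.9% of all genes did. The calls in both prefixes were near these shares. In EBs against iPSCs 7 of these 8 rose, where 44.4% of all genes did, led by Epas1 (2.69), Egln1 (2.43) and Egln3 (2.31). Hif1a fell (-0.35), where 42.2% of all genes did. Oxygen was not measured in the files used here, and its part in these changes was not tested.

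For 4 of the genes, Slc2a1, Hk2, Pfkp and Pdk1, the share in the isoform family lay apart in EBs and iPSCs. The shares of Aldoa, Eno1 and Ldha in their families were also examined, and these overlapped. How often such shares lie apart in other gene families was not computed. Of all 13895 genes, 12036 were called between EBs and iPSCs, so the count of 4 is descriptive and does not set these families apart. Slc2a1 made up 25.4% to 34.4% of the summed FPKM of Slc2a1 and Slc2a3 in EBs and 36.3% to 54.6% in iPSCs. Slc2a3 stood at 1081 ± 147 FPKM in EBs (SD, n = 4) against 198 ± 61.5 FPKM in iPSCs (SD, n = 12). Hk2 gave 81.0% to 83.4% of hexokinase FPKM (Hk1 and Hk2) in EBs and 56.3% to 71.2% in iPSCs. Pfkp gave 18.4% to 18.97% of phosphofructokinase FPKM (Pfkp, Pfkl and Pfkm) in EBs, where Pfkl reached 199 ± 13.3 FPKM, and 31.0% to 46.7% in iPSCs, where Pfkl was at 69.4 ± 34.2 FPKM. Pdk1 gave 60.8% to 73.9% of the FPKM of Pdk1 to Pdk4 in EBs and 32.1% to 46.2% in iPSCs. None of these 4 shares overlapped between EBs and iPSCs, which is how the 4 were picked out. Within iPSCs some of these shares lay apart between prefixes. At number 1 Slc2a1 held 49.3% to 50.2% in KIX and 53.5% to 54.3% in KI. Pdk1 held 41.2% to 42.8% in KIX and 38.1% to 39.4% in KI there. At number 4 Slc2a1 held 36.3% to 36.9% in KIX and 51.0% to 54.6% in KI. There Pfkp held 45.8% to 46.7% in KIX and 35.1% to 39.7% in KI, and Hk2 60.2% to 63.8% in KIX and 66.5% to 66.8% in KI. The shares lay apart at number 10 for Hk2, with 70.1% to 70.2% in KIX and 56.3% to 57.7% in KI. So did those of Pdk1, with 45.6% to 46.2% in KIX and 32.1% to 35.4% in KI. Eno1 supplied 97.2% to 99.3% of the FPKM of Eno1, Eno2 and Eno3 in every library, and Ldha 80.0% to 90.2% of Ldha and Ldhb. Pgk2, the testis-type partner of Pgk1, was listed at 0 to 0.0945 FPKM.

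**Figure D5:**
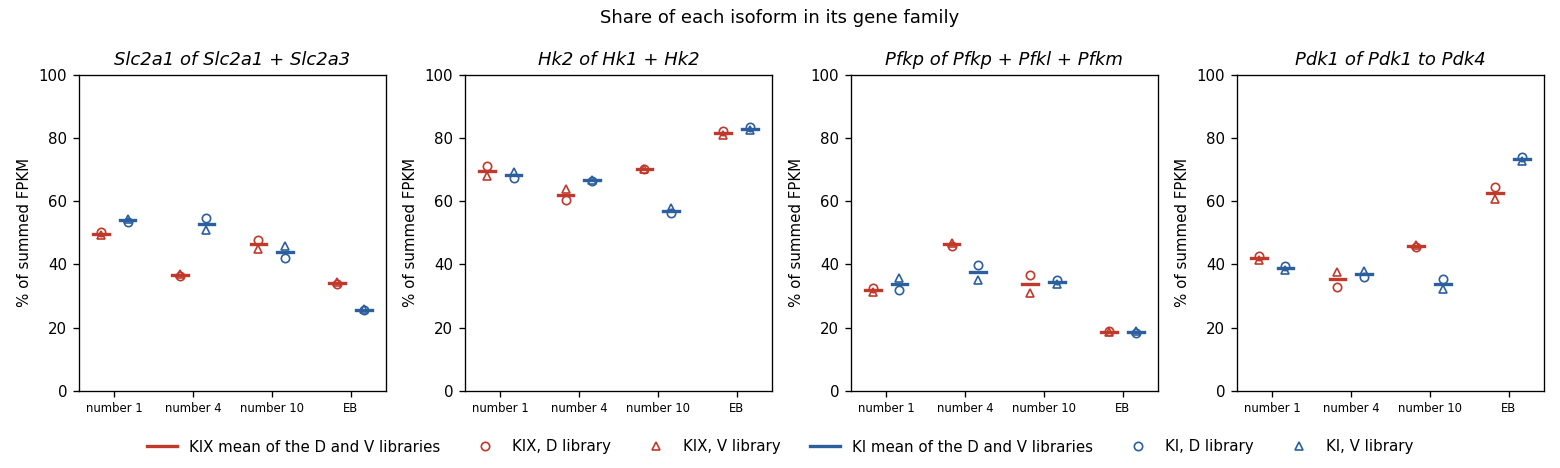
Share of Slc2a1, Hk2, Pfkp and Pdk1 in the summed FPKM of their family (%), by number or EB, KIX in red to the left of KI in blue; circles are D libraries, triangles V libraries and bars their mean. In EBs Hk2 and Pdk1 hold their highest shares, up to 83.4% and 73.9%, and Slc2a1 and Pfkp their lowest, down to 25.4% and 18.4%.

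Likeness of pattern was described over the 12 iPSC libraries by Pearson's r of log2(FPKM + 1), among 6160 genes averaging 10 FPKM or more. These libraries share their prefix and number, so the points are not independent, and no test was made. Between the 8 genes r ran from 0.495 (Eno1 with Hk2) to 0.991 (Pgk1 with Slc2a1) over 28 pairs, with a median of 0.794. The genes most like Slc2a1 were Pgk1 (0.991), Bnip3 (0.990) and Egln3 (0.980), and those most like Pgk1 were Slc2a1, Bnip3 (0.983) and Gng5 (0.981). Aldoa had Tpi1 (0.989), Dhcr7 (0.989) and Pkm2 (0.987), and Ldha had Pgam1 (0.991), Slc16a3 (0.983) and Cks1b (0.969). The other 4 were most like genes outside the lists. These were Gga2 (0.956), Trim37 (0.953) and Ppif (0.953) for Hk2, Agpat5 (0.974), Fyttd1 (0.973) and Upf3b (0.970) for Pfkp, Mycbp (0.959), Polr2h (0.956) and Ran (0.948) for Eno1, and Kctd5 (0.987), Hnrnpk (0.973) and Ccnb1 (0.966) for Pdk1. Over all 16 libraries and 6443 genes, Tpi1, Slc16a3 or Bnip3 stood among the 3 most like genes of Slc2a1, Aldoa and Ldha.

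The letters D and V, compared within groups, gave 0 called genes of all 13895 (0%) in limma, with 764 genes at an unadjusted p under 0.05, and 0 of the 8 genes by either measure. Total FPKM lay between 612598 and 724350 per library, and 12117 to 12501 genes reached 1 FPKM. Sequencing depth is unknown, so no counting interval can be given. Libraries that differed only in prefix had log2 differences with an SD of 0.330 to 0.474, and those that differed only in letter had an SD of 0.111 to 0.417 (1914 genes averaging 50 FPKM or more).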

How the data were processed

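RNA was measured by sequencing in 16 libraries. The authors deposited 1 table of FPKM values, scaled by library size and transcript length. Cufflinks 2.2.1, TopHat2 2.0.10 and Bowtie 1.0.0, with SAMtools 0.1.19, FastQC and the build GRCm38 (mm10), are named per the submitters' processing notes. Settings and annotation are not given in the sources used here. Values of low genes were not whole multiples of a read (30.7% of 55453 low values within 0.1 of a whole number), so depth is unknown, no count test was run, and the number of libraries limits the precision.

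Differences of log2(FPKM + 1) were fitted with limma 3.58.1 in R 4.3.3 over the 13895 genes that reached 1 FPKM in 2 or more libraries, as 8 means of prefix and number with a mean-variance trend and Benjamini-Hochberg adjustment. The libraries of a group are its D and V library. The fit was tested on simulated data.

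The members and gene lists were chosen with earlier results of these data known, and 6 of the 19 comparisons (those within a prefix, and EBs against number 1 or 10) were added after the data were seen. Named are the 8 genes, the 5 largest called changes of a list (or fewer), partner isoforms, and the 3 genes most like each member in pattern. Pkm and Tigar stand under older names, Pkm2 and 9630033F20Rik. Of 6 names listed as copies or relatives of the 8 genes, 4 were found. Alternatives were other pseudocounts, filters, scalings, designs and a fibroblast covariate, and leaving out each library. An item that the rule for named genes would include is not reported here.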

Additional observations from a re-analysis of the deposited data

Results flagged for a closer look

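For 7 of the 8 genes a change between numbers, or between EBs and iPSCs, differed between KIX and KI by a test of the difference itself (limma, Benjamini-Hochberg adjusted). All values are log2 differences, the change in KIX minus that in KI, and each group has 2 libraries. The count of 7 pools 4 contrasts, and the matching share of all genes was not computed. Of all 13895 genes, 655 were called in either direction for number 4 minus 1 and 3955 for 10 minus 4. For 10 minus 1 the number was 710, and for EBs minus iPSCs 4585.

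In number 4 minus number 1, KIX fell further than KI for Pgk1 (-1.22, adjusted p = 0.0253), Ldha (-1.09, adjusted p = 0.00718), Slc2a1 (-0.996, adjusted p = 0.0415), Eno1 (-0.994, adjusted p = 0.00950), Aldoa (-0.823, adjusted p = 0.0272) and Pdk1 (-0.606, adjusted p = 0.0202).

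In number 10 minus number 4 the difference had the opposite sign for Ldha (1.16, adjusted p = 0.00132), Eno1 (1.15, adjusted p = 0.00110), Pdk1 (1.11, adjusted p = 0.000381), Aldoa (0.973, adjusted p = 0.00355), Pgk1 (0.943, adjusted p = 0.0189), Slc2a1 (0.912, adjusted p = 0.0173) and Hk2 (0.451, adjusted p = 0.0351). Both contrasts use the libraries of number 4, so they are not independent of each other.

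Pdk1 also differed in number 10 minus number 1 (0.508, adjusted p = 0.0351) and in EBs minus iPSCs (-0.445, adjusted p = 0.00563). The libraries whose removal changes these counts are named with the comparisons above, and the causes were not tested.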

How the results depend on the processing

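Of 4152 values of the 8 genes under the alternatives, 206 no longer passed, 19 newly passed, and 3923 kept their side of the threshold and, where called, their direction. Of 1687 values of changes that were not called, 75 had the other sign. Of 2465 values of called changes 4 had the other sign, and all 4 were fits with the fibroblast score as a covariate, for EBs against iPSCs in Pgk1 (-0.032) and for EBs against number 1 in Slc2a1 (-0.31), Hk2 (-0.078) and Aldoa (-0.20). That fit left 0 genes called for EBs against iPSCs, number 1 or number 10, for KIX against KI in EBs and for the prefix difference in EBs minus iPSCs, and 5 for number 10 against 4 in KI. The cause was not tested. Means by letter and number gave 1 gene for number 4 against 1, 1 for 10 against 4, 5 for 10 against 1 and 3 for EBs against number 1. Additive terms gave 5 for number 4 against 1 and 3 for 10 against 4. Quantile, TPM and median-of-ratios scaling each gave 1 gene for KIX against KI in EBs and 2 for the prefix difference in EBs minus iPSCs, as did robust shrinkage for the second (2). Quantile scaling gave 0 for number 4 against 1 in KI. Using only the libraries compared gave 0 for the prefix difference in number 10 minus 1.

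Leaving out 1 library gave 2 to 5 genes for KIX against KI at number 10 and 0 to 2 in EBs, 2 to 6 for the prefix difference in number 4 minus 1, 4 to 7 in 10 minus 4, 0 to 1 in 10 minus 1 and 1 to 2 in EBs minus iPSCs, and 0 to 1 for number 4 against 1 in KI. A group left with 1 library was assumed to vary like the others.

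Differences of D from V were little correlated between groups. Over 28 pairs of groups the correlation ran from -0.187 to 0.206, with 3 over 0.1 and 4 below -0.1. Whether the letters pair the libraries is not given in the labels. With the letter as a replicate block, 7 genes passed for EBs against iPSCs, 8 for number 4 against 1, 5 for 10 against 4 and 8 for 10 against 1. With that block 3 passed for KIX against KI at number 10 (4 without it) and 7 for number 4 against 1 in KIX (8 without it), and the other counts were equal.

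Counts over all 13895 genes moved by over 1.5 times as follows. The covariate gave 3881 for EBs against iPSCs (12036 without it), 3345 against number 1 (11596), 3814 against number 10 (11697), 2218 for KIX against KI at number 10 (3414), 656 in EBs (3796), 580 for the prefix difference in EBs minus iPSCs (4585), 1306 for number 4 against 1 in KI (2578) and 2343 for 10 against 4 in KI (4625). Means by letter and number gave 1185 and additive terms 2603 for number 4 against 1 (5370), 1547 and 2962 for 10 against 4 (5677), and the means gave 3524 for 10 against 1 (7213). TPM scaling gave 453 for the prefix difference in number 10 minus 1 (710), and the compared libraries alone 1477 for KIX against KI in EBs. TPM scaling moved the median of all genes to 0.16 in the prefix difference of number 4 minus 1 and to -0.18 in that of 10 minus 4.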
